A study of Mus musculus with 15 samples.

Results

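The genes described here are 10 members of the oxygen-sensing and hypoxia-response pathway: Hif1a, Epas1, Vhl, Egln1, Egln3, Vegfa, Bnip3, Car9, Adm and Epo. They were taken by symbol from a table of 25030 genes, and all 10 were found in it. The table holds bulk RNA sequencing of 3 zones dissected from mouse kidney: inner medulla (IM), outer medulla (OM) and cortex, with 5 libraries per zone and 15 in all. Every library came from wild-type male mice of the strain labelled C56BL/6N, with no treatment named, and the zones differ only in where the tissue was cut. The labels do not say whether libraries of the same zone came from separate animals, and the spread behind each p-value is only that among these libraries, which could be technical.

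The pathway is controlled mainly on protein. Hypoxia-inducible factor (HIF) is a dimer of an oxygen-labile alpha subunit and a stable partner, ARNT. When oxygen is plentiful, prolyl hydroxylases of the EGLN family mark the alpha subunit and the VHL ubiquitin ligase has it degraded. When oxygen falls, the alpha subunit persists, enters the nucleus and binds hypoxia response elements of its target genes. The renal medulla is known for low oxygen tension, since its long parallel vessels exchange oxygen by countercurrent, and kidney interstitial fibroblasts are the main adult source of erythropoietin. Neither oxygen nor HIF protein was measured here, so all values are transcript levels.

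Levels are in TPM, a measure of transcript abundance that is scaled for transcript length and sums to 1000000 in each library. Whole reads inferred from the steps of the TPM values came to between 16264486 and 25195553 per library, both extremes being IM libraries. At 1 TPM, a typical gene had between 20.6 and 32.8 reads. Summed markers of principal cells and of the convoluted proximal tubule followed the labelled zones. The 7 principal cell markers summed to 8210.5 to 13249 TPM in IM, 950 to 1319 TPM in OM and 637 to 795 TPM in cortex, whereas the 7 convoluted proximal tubule markers summed to 706 to 1284 TPM in IM, 4430.4 to 6015 TPM in OM and 9065 to 10824 TPM in cortex. Aqp2 alone averaged 7743 TPM in IM. Of the 7 principal cell markers, 4 were called higher and 2 lower in IM than in cortex (70.2% and 16% of all tested genes). The IM libraries also held thick ascending limb markers, at 2808 to 5873 TPM, against 3260 to 6589 TPM in OM and 1546 to 1992 TPM in cortex. OM 1 stood apart in its urothelial markers, which summed to 86.3 TPM, against 13.1 to 23.6 TPM in the other OM libraries. IM 4 stood apart in its straight proximal tubule markers, which summed to 631 TPM, against 1405 to 1941 TPM in the other IM libraries.

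**Figure D1:**
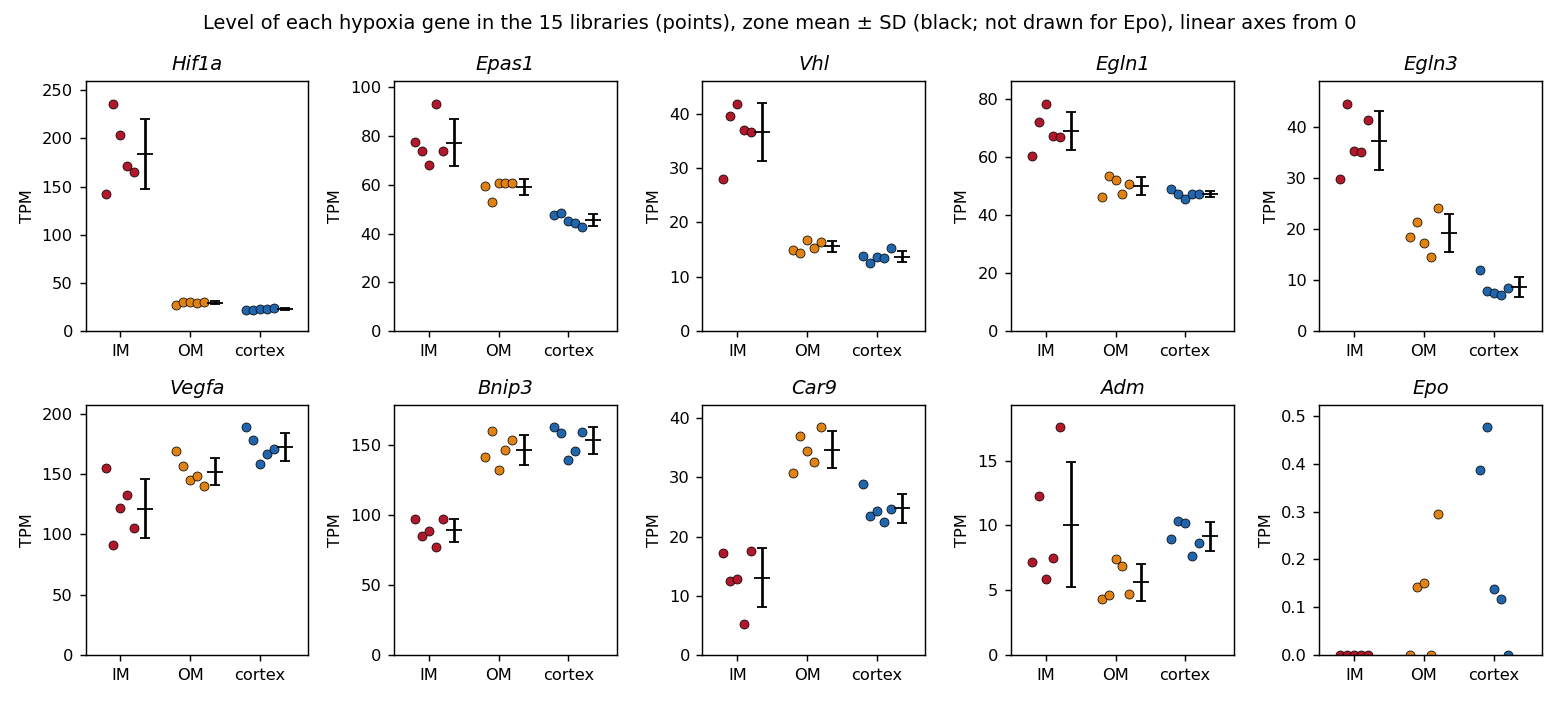
TPM of each of the 10 hypoxia genes in the 15 libraries, with zones in the order IM, OM and cortex on the horizontal axis. Points are libraries, and black marks are the zone mean ± SD (n = 5), not drawn for Epo. Each vertical axis is linear from 0. Hif1a lies between 143 and 236 TPM in IM and below 31 TPM in every OM and cortex library, whereas Bnip3 lies below 97 TPM in IM and above 131 TPM in the other zones.

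Among the HIF alpha subunits, Hif1a set the IM apart. It measured 143, 236, 204, 172 and 165 TPM in the 5 IM libraries, 27.2, 30.7, 29.96, 28.9 and 30.4 TPM in the OM libraries and 21.6, 22.3, 22.9, 23.4 and 24.4 TPM in the cortex libraries. The 3 zones did not overlap, and IM libraries differed among themselves by more than OM differed from cortex. Mean Hif1a was 184 ± 36.4 TPM in IM, 29.4 ± 1.42 TPM in OM and 22.9 ± 1.05 TPM in cortex (SD, n = 5 each), so IM was 6.24-fold above OM and 8.02-fold above cortex. On the log2(TPM + 1) scale the difference was 2.58 ± 0.10 for IM minus OM (SE; limma adjusted p = 5.73e-12) and 2.93 ± 0.10 for IM minus cortex (limma adjusted p = 4.64e-13). OM was 0.35 ± 0.10 above cortex (limma adjusted p = 0.0141), a call that was lost once libraries were rescaled by the median ratio of all genes (difference 0.22, limma adjusted p = 0.086). In bulk tissue, fewer cells of a type and less RNA per cell cannot be told apart, here and in every result that follows.

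Epas1, which encodes the HIF-2alpha subunit, followed the same order of zones with far smaller steps. Its level was 77.4, 73.9, 67.9, 93.1 and 73.7 TPM in IM, 59.3, 53.1, 60.7, 60.8 and 60.7 TPM in OM and 47.4, 48.5, 45.1, 44.2 and 42.7 TPM in cortex. No zone overlapped another. The mean was 77.2 ± 9.54 TPM in IM, 58.9 ± 3.32 TPM in OM and 45.6 ± 2.37 TPM in cortex. Epas1 was higher by 0.38 ± 0.07 on the log2 scale in IM than in OM (limma adjusted p = 0.000158) and by 0.36 ± 0.07 in OM than in cortex (limma adjusted p = 0.00119). These steps must be set beside the shift of all genes: over the 15052 genes tested, the median difference was 0.51 for IM minus OM, 0.65 for IM minus cortex and 0.11 for OM minus cortex. After median-ratio scaling, which brought those medians to 0.05, 0.08 and -0.00, Epas1 differed by -0.13 between IM and OM (limma adjusted p = 0.0897) and by 0.23 between OM and cortex (limma adjusted p = 0.0135).

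The ratio of both alpha subunits within a library does not depend on that scaling. Hif1a over Epas1 was 1.84, 3.19, 3.00, 1.85 and 2.24 in the IM libraries, with a mean of 2.42 ± 0.639, against 0.502 ± 0.0461 in OM and 0.505 ± 0.0483 in cortex (SD, n = 5 each). Hif1a was thus the more abundant alpha subunit transcript, per length, in every IM library, and Epas1 in every OM and cortex library. The log2 ratio was higher by 2.24 ± 0.18 in IM than in OM and by 2.23 ± 0.18 in IM than in cortex (SE; exact two-sided permutation test, p = 0.00794 for each, adjusted p = 0.0102 over 9 ratio tests). That p is the smallest that 5 libraries against 5 can give. Between OM and cortex the log2 ratio differed by -0.01 ± 0.08 (exact permutation p = 0.913).

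Markers of the endothelium, the vessel lining where Epas1 is known to be abundant, had the same order of zones on the TPM scale. The 10 endothelial markers summed to 1826 to 2407 TPM in IM, 486 to 620 TPM in OM and 297 to 334 TPM in cortex. All 10 were called higher in IM than in OM, as were 66.4% of all tested genes. After median-ratio scaling all 10 were still called higher (39.8% of all tested genes), whereas Epas1, at -0.13, was not called. Their part in the levels of Hif1a and Epas1 was not tested.

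**Figure D2:**
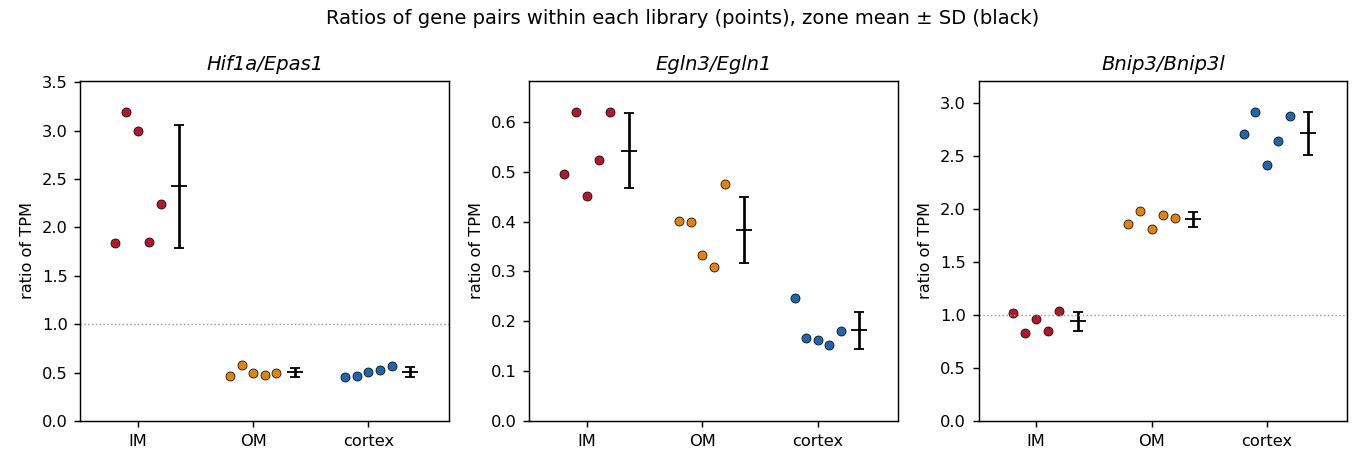
Ratios of TPM of gene pairs within each library, by zone (IM, OM, cortex); points are libraries and black marks are the zone mean ± SD (n = 5), with a dotted line where both genes are equal. Hif1a/Epas1 averages 2.42 in IM against 0.502 in OM and 0.505 in cortex, Egln3/Egln1 averages 0.542, 0.383 and 0.182 in IM, OM and cortex, and Bnip3/Bnip3l averages 0.937, 1.90 and 2.71.

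On the TPM scale the 3 oxygen-sensing genes were higher in IM than in both other zones. Egln3 encodes the prolyl hydroxylase PHD3, whose transcript is itself a known HIF target. Egln3 measured 29.8, 44.5, 35.4, 35.2 and 41.4 TPM in IM, 18.5, 21.4, 17.3, 14.6 and 24.1 TPM in OM and 12.03, 7.89, 7.41, 7.16 and 8.49 TPM in cortex. Every IM library was above every OM library, and every OM library was above every cortex library. The mean was 37.3 ± 5.78 TPM in IM, 19.2 ± 3.68 TPM in OM and 8.59 ± 1.99 TPM in cortex (SD, n = 5 each), and IM was 4.33-fold above cortex. The log2 difference was 0.93 ± 0.15 for IM minus OM (limma adjusted p = 2.37e-05), 1.07 ± 0.15 for OM minus cortex (limma adjusted p = 5.34e-05) and 2.00 ± 0.15 for IM minus cortex (limma adjusted p = 2.55e-09). All 3 calls held after median-ratio scaling, with differences of 0.43, 0.96 and 1.39. Cortex 1, at 12.03 TPM, lay above the 7.16 to 8.49 TPM of the other cortex libraries, and without it the OM minus cortex difference was 1.19.

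Egln1 encodes PHD2, the main hydroxylase that sets HIF levels in normal oxygen. It had 60.2, 71.8, 78.2, 67.1 and 66.9 TPM in IM, 46.1, 53.4, 52.1, 47.3 and 50.7 TPM in OM and 48.9, 47.2, 45.6, 47.1 and 47.1 TPM in cortex. IM lay above both other zones, which overlapped. Egln1 was higher by 0.45 ± 0.06 in IM than in OM (limma adjusted p = 5.82e-06), close to the median shift of all genes, and the difference was -0.05 after median-ratio scaling (limma adjusted p = 0.431). OM minus cortex was 0.08 ± 0.06 (limma adjusted p = 0.357). The ratio Egln3/Egln1 was 0.542 ± 0.0751 in IM, 0.383 ± 0.0657 in OM and 0.182 ± 0.0375 in cortex. On the log2 scale it was higher by 1.08 ± 0.16 in OM than in cortex (exact permutation adjusted p = 0.0102) and by 0.51 ± 0.14 in IM than in OM (exact permutation p = 0.0159, adjusted p = 0.0179). The IM minus OM ratio was 0.53, with an adjusted exact permutation p of 0.0643, without cortex 1, OM 1 and IM 4.

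Vhl, the substrate-binding subunit of the ubiquitin ligase, measured 28.0, 39.6, 41.8, 37.1 and 36.6 TPM in IM, 15.01, 14.3, 16.8, 15.3 and 16.4 TPM in OM and 13.7, 12.5, 13.6, 13.4 and 15.2 TPM in cortex. IM stood clear of both other zones, and OM and cortex overlapped. Vhl was 2.35-fold higher in IM than in OM and 2.67-fold higher in IM than in cortex, with log2 differences of 1.17 ± 0.09 (limma adjusted p = 5.86e-09) and 1.35 ± 0.09 (limma adjusted p = 6.77e-10). Both calls held after median-ratio scaling, at 0.68 and 0.73. OM minus cortex was 0.17 ± 0.09 (limma adjusted p = 0.146), and without IM 1, the lowest IM library, its adjusted p was 0.0397.

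Among the HIF targets of the 10 genes, Vegfa, Bnip3 and Car9 went the other way, being lower in IM than in both other zones. On the TPM scale Adm did not, Epo was too low for the fit, and Egln3, itself a target, was higher in IM. Short promoter stretches of 5 members, from RefSeq on build GRCm38.p6, show the letters by which such targets are usually recognised. The core of a hypoxia response element is ACGTG or GCGTG. Capitals mark each core, read as ACGTG or GCGTG on the strand of the gene and as CACGT or CACGC where it lies on the other strand; in Bnip3 a core on each strand overlaps in CACGTG. Each stretch is printed on the strand of its gene.
Egln3, chr12:54204079-54204123, minus strand: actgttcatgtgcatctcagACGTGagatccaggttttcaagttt
Egln1, chr8:124949298-124949400, minus strand: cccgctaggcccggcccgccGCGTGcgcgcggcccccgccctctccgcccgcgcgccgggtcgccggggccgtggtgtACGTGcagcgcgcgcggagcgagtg
Bnip3, chr7:138909517-138909643, minus strand: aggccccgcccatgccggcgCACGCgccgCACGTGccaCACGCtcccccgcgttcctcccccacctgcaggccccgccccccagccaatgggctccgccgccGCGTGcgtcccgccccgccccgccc
Car9, chr4:43506988-43507032, plus strand: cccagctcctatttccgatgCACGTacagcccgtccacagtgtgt
Adm, chr7:110627547-110627627, plus strand: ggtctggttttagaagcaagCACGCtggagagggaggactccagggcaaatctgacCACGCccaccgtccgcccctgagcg

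The Car9 core lies 18 bases before the start, in a single copy, and the Egln3 core 229 bases before it. Adm has cores at 90 and 54 bases before the start and Egln1 at 126 and 68 bases. Bnip3 has 5, with the overlapping pair at 108 and 107 bases and the others at 117, 99 and 35 bases. Of the members' 10 windows of 300 bases, which cover 250 before and 50 after the start of 9 members, 6 hold ACGTG, 5 hold GCGTG and 8 hold either on either strand. Over all 32851 windows of this length the shares are 19.6%, 32.4% and 43.8%. Vhl and 1 of the 2 Vegfa windows have no such match, which says only that these letters are not in the window. Epas1 is named only. A match is a description of the sequence, and genes with cores lay on both sides of the zonal comparison: Egln3 was higher in IM, and Bnip3 and Car9 lower.

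Bnip3, a mitochondrial receptor for mitophagy, fell in IM. It measured 96.9, 84.6, 88.7, 76.8 and 96.7 TPM in IM, 141, 159.6, 132, 146 and 153 TPM in OM and 162, 159, 139, 145 and 159 TPM in cortex. Every IM library lay below every OM and cortex library, and OM and cortex overlapped. Mean Bnip3 was 88.7 ± 8.52 TPM in IM, 146 ± 10.7 TPM in OM and 153 ± 9.95 TPM in cortex (SD, n = 5 each). The log2 difference was -0.72 ± 0.07 for IM minus OM (limma adjusted p = 1.38e-07) and -0.78 ± 0.07 for IM minus cortex (limma adjusted p = 3.67e-08), against -0.06 ± 0.07 for OM minus cortex (limma adjusted p = 0.532). All 7 convoluted proximal tubule markers were also called lower in IM than in OM (17.2% of all tested genes), with the sums given above. Between OM and cortex, where Bnip3 was not called, 6 of the 7 were called lower in OM (6.3% of all tested genes). The part of these markers in the Bnip3 result was not tested.

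Its paralogue Bnip3l, which encodes the related mitophagy receptor NIX, changed in the opposite direction on the TPM scale, at 94.8 ± 4.17 TPM in IM, 77.0 ± 3.19 TPM in OM and 56.5 ± 2.30 TPM in cortex. After median-ratio scaling, Bnip3l was also lower in IM than in OM, by 0.21 on the log2 scale. The ratio Bnip3/Bnip3l was 0.937 ± 0.0934 in IM, 1.90 ± 0.0692 in OM and 2.71 ± 0.201 in cortex, with no overlap between zones. On the log2 scale it was lower by 1.02 ± 0.07 in IM than in OM and by 0.51 ± 0.05 in OM than in cortex. For IM against cortex it was lower by 1.53 ± 0.08 (exact permutation adjusted p = 0.0102 for each of the 3).

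Vegfa, the endothelial growth factor, was lower in IM. Its level was 155, 91.3, 122, 132 and 105 TPM in IM, 169, 156, 145, 148 and 140.1 TPM in OM and 188, 178, 158, 167 and 171 TPM in cortex. IM 1 reached into the OM range, whereas every IM library lay below every cortex library. Vegfa fell by 0.35 ± 0.11 on the log2 scale in IM against OM (limma adjusted p = 0.00852) and by 0.53 ± 0.11 in IM against cortex (limma adjusted p = 0.000301). OM minus cortex was -0.18 ± 0.11 (limma adjusted p = 0.214), and -0.32 after median-ratio scaling (limma adjusted p = 0.0483). Podocyte markers, of a cell type known to make Vegfa, summed to 71.3 to 88.9 TPM in IM, 81.9 to 107 TPM in OM and 83.04 to 109 TPM in cortex, and their part in the Vegfa difference was not tested.

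Car9, the HIF-induced membrane carbonic anhydrase, was lowest in IM and highest in OM. It measured 17.2, 12.5, 12.7, 5.27 and 17.5 TPM in IM, 30.8, 37.0, 34.5, 32.6 and 38.4 TPM in OM and 29.0, 23.5, 24.4, 22.5 and 24.7 TPM in cortex. The zones did not overlap. Car9 was lower by 1.44 ± 0.22 on the log2 scale in IM than in OM (limma adjusted p = 2.95e-05) and by 0.97 ± 0.22 in IM than in cortex (limma adjusted p = 0.000953). OM minus cortex was 0.47 ± 0.22 (limma adjusted p = 0.124). All zones share 1 estimate of the spread in this fit, and that adjusted p was 0.00181 without IM 4, the library with 5.27 TPM. In the 10 libraries of OM and cortex, an exact two-sided permutation test of mean TPM gave p = 0.00794, with an adjusted p of 0.0179 over 9 tests of Car9, Adm and Epo that were chosen after their values were seen.

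The 6 straight proximal tubule markers, like Car9, were highest in OM, summing to 631 to 1941 TPM in IM, 3736 to 4729 TPM in OM and 1531 to 2858 TPM in cortex, with the lowest IM sum in IM 4. The IM and cortex sums overlapped. Between these zones 3 of the 6 markers were called lower in IM and 1, Cyp7b1, was called higher (16% and 70.2% of all tested genes). Their part in the Car9 result was not tested. In RefSeq, Car9 also overlaps Arhgef39, which averaged 15.2 TPM in IM, 41.5 TPM in OM and 35.5 TPM in cortex, and Tpm2, which averaged 10.4, 11.2 and 6.56 TPM in IM, OM and cortex. Without a stated strand setting, reads of overlapping genes cannot be told apart, so the Car9 level is uncertain.

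Adm, the vasodilator peptide adrenomedullin, was a low transcript whose IM libraries spread widely. It had 7.15, 12.3, 5.86, 7.48 and 17.6 TPM in IM, 4.29, 4.65, 7.44, 6.90 and 4.69 TPM in OM and 8.93, 10.4, 10.2, 7.63 and 8.65 TPM in cortex. IM spanned both other zones, and every OM library lay below every cortex library. OM minus cortex was -0.64 ± 0.23 (limma adjusted p = 0.0438). The call was lost without cortex 1, 2, 3 or 5 and without OM 1, 2 or 5, at adjusted p of 0.0669 to 0.093. It was also lost when the replicate number was added to the fit. IM minus OM was 0.67 ± 0.23 (limma adjusted p = 0.0143), and 0.23 after median-ratio scaling (limma adjusted p = 0.396). By the exact permutation test of mean TPM, the adjusted p over the same 9 tests was 0.0179 for OM against cortex and 0.0714 for IM against OM. IM minus cortex was 0.03 ± 0.23 (limma adjusted p = 0.906), turning to -0.55 after median-ratio scaling (limma adjusted p = 0.0448).

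Epo, the erythropoietin gene, was too low for the fit. It was listed at 0 in all 5 IM libraries. It stood at 0, 0.142, 0.150, 0 and 0.295 TPM in OM and at 0.387, 0.476, 0.138, 0.118 and 0 TPM in cortex. These values correspond to 0 reads in IM, 4 reads in 3 OM libraries and 9 reads in 4 cortex libraries, where 1 read was worth 0.118 to 0.186 TPM. A floor of 3 reads over the zone is 0.0906 TPM in IM, 2.55-fold below the pooled level of 0.231 TPM in cortex. The floor covers counting error in IM only. The cortex level rests on 9 reads with a counting error of its own, so 2.55 is not a lower limit of the fold. The exact two-sided permutation p was 0.0476 for IM against cortex (adjusted 0.0714), 0.167 for IM against OM and 0.373 for OM against cortex, so no Epo difference passed the adjusted threshold. Interstitial fibroblast markers, of the cell class that makes Epo, summed to 153 to 224 TPM in IM, 99.6 to 140 TPM in OM and 53.1 to 56.5 TPM in cortex. Of these 8 markers, 4 were called higher and 2 lower in IM than in OM (66.4% and 17.2% of all tested genes). After median-ratio scaling 3 were higher and 4 lower (39.8% and 35.1%). Their part in the Epo levels was not tested.

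**Figure D3:**
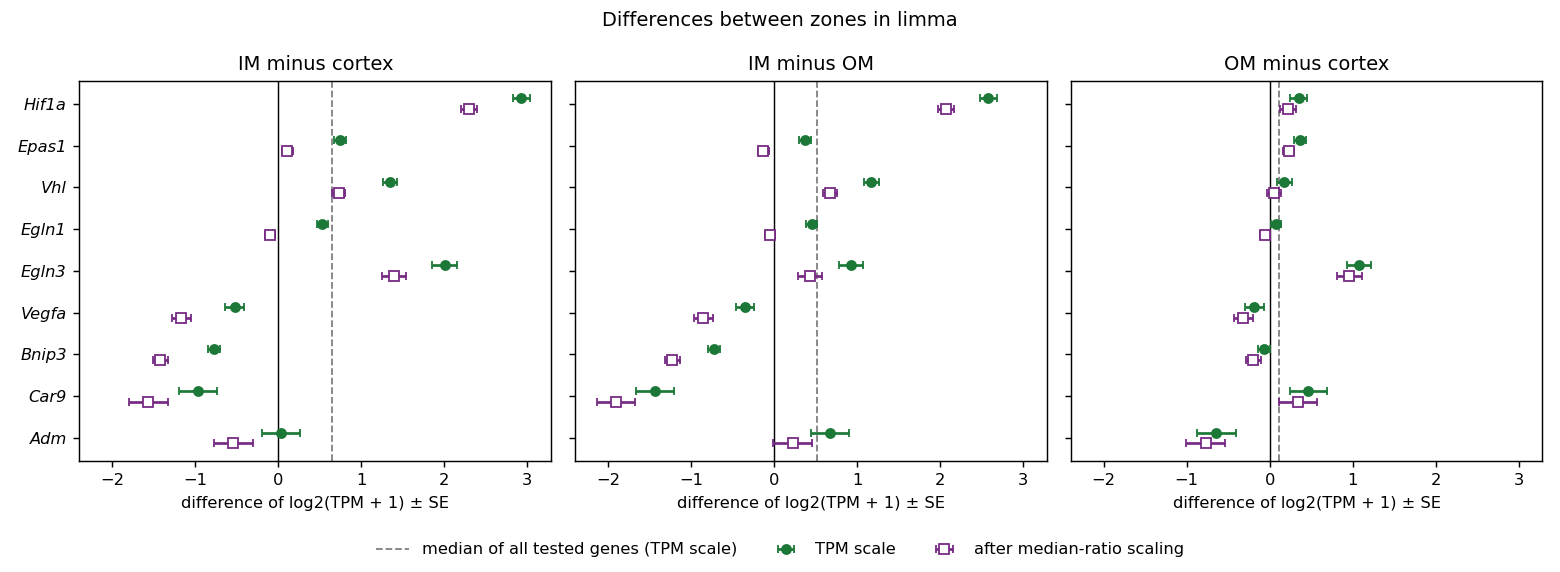
Difference in log2(TPM + 1) ± SE from limma for the 9 tested genes, for IM minus cortex, IM minus OM and OM minus cortex; filled circles are the TPM scale, open squares follow median-ratio scaling and the dashed line is the median of all tested genes. Hif1a stands at 2.93 and 2.58 in the comparisons of IM with cortex and with OM, right of the medians of 0.65 and 0.51, and Vegfa, Bnip3 and Car9 lie left of 0 in both.

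The filter on low values (1 TPM in 5 libraries) left 9 members, all but Epo. Of these, 6 were called higher and 3 lower in IM than in OM, where 66.4% of all tested genes were called higher and 17.2% lower. Between IM and cortex, 5 were higher and 3 lower, against 70.2% and 16% of all tested genes. Between OM and cortex, 3 were higher (Hif1a, Epas1 and Egln3) and 1 was lower (Adm), against 28.3% and 6.3%. Without overlap between libraries, 5 members were higher and 2 lower in IM than in OM (58.2% and 13.2% of all tested genes), and 5 were higher and 3 lower in IM than in cortex (64.2% and 13.3%). For OM against cortex, 4 were higher and 1 was lower (23.4% and 5.29%). The comparisons share libraries and are not independent of one another. After median-ratio scaling the members stood at 3 higher and 3 lower for IM minus OM, where the shares of all tested genes were 39.8% and 35.1%. They stood at 3 and 4 for IM minus cortex (42.7% and 36.3%) and at 2 and 2 for OM minus cortex (17.5% and 14.2%). The members' median log2 difference was 0.45, 0.53 and 0.17 in those comparisons, beside 0.51, 0.65 and 0.11 for all genes tested. Hif1a, Vhl and Egln3 were higher in IM than in both other zones on either scale, and Vegfa, Bnip3 and Car9 were lower on either scale.

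The wider pathway was read from lists of known partners, targets and receptors. Of the partners and oxygen sensors, 13 of 14 genes were tested, with 10 higher and 2 lower in IM than in cortex (6 and 6 after median-ratio scaling), where 70.2% and 16% of all tested genes were called (42.7% and 36.3% after scaling). Their median log2 difference was 0.43, against 0.65 for all genes. The 3 most abundant were Elob and Rbx1, subunits of the VHL ligase, and Cited2, which restrains HIF by competing for its coactivators. Elob averaged 599 ± 52.0 TPM in IM, 448 ± 23.7 TPM in OM and 472 ± 28.0 TPM in cortex, and it was higher by 0.34 in IM than in cortex on the TPM scale but lower by 0.31 after scaling. Rbx1 averaged 132 ± 4.55 TPM in IM, 103 ± 8.11 TPM in OM and 98.9 ± 3.64 TPM in cortex, at 0.41 for IM minus cortex on the TPM scale and -0.23 after scaling. In RefSeq Elob overlaps Srrm2. Cited2 averaged 146 ± 19.6 TPM in IM, 79.3 ± 14.3 TPM in OM and 55.1 ± 8.91 TPM in cortex, and its IM minus cortex difference of 1.39 ± 0.14 (limma adjusted p = 8.4e-08) kept its sign after scaling, at 0.76.

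A further 4 genes of this list are named after their values were seen. Arnt, the common HIF partner, averaged 41.0 TPM in IM, 21.0 TPM in OM and 18.3 TPM in cortex, and rose by 1.12 on the log2 scale in IM against cortex (limma adjusted p = 3.01e-11). Its relative Arnt2 averaged 8.21 TPM in IM, against 16.2 TPM in OM and in cortex, and fell by 0.92 against cortex (limma adjusted p = 0.000102). Hif1an, the asparagine hydroxylase that blocks HIF transactivation, averaged 34.5 TPM in IM, 20.1 TPM in OM and 17.1 TPM in cortex, and rose by 0.97 in IM against cortex (limma adjusted p = 4.81e-10; 0.35 after scaling). Egln2, the hydroxylase PHD1, was at 74.5 TPM in IM, 71.2 TPM in OM and 74.9 TPM in cortex, with no call in any comparison on the TPM scale. After median-ratio scaling it was called lower in all 3, at -0.44 for IM minus OM, -0.65 for IM minus cortex and -0.20 for OM minus cortex (limma adjusted p = 3.62e-05, 4.7e-07 and 0.038).

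**Figure D4:**
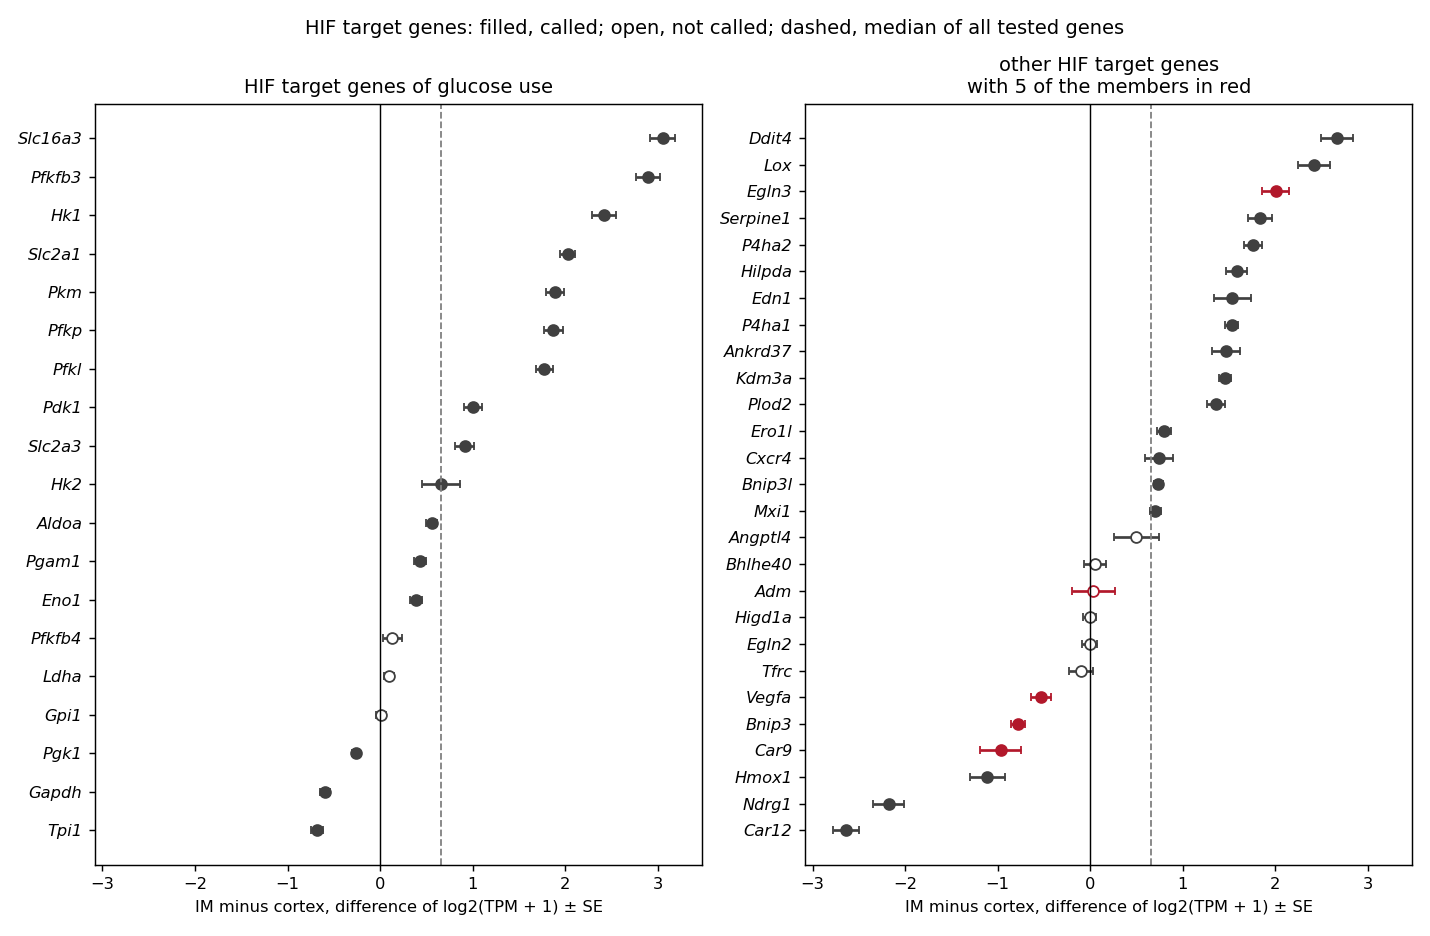
IM minus cortex difference in log2(TPM + 1) ± SE from limma for HIF target genes of glucose use (left) and for other HIF target genes with 5 of the members in red (right); filled points were called and open points were not, and the dashed line is the median of all tested genes, 0.65. Targets lie on both sides of 0, with Slc16a3 at 3.05 and Ddit4 at 2.67 highest in their panels and Ndrg1 at -2.18 and Car12 at -2.64 at the lower end.

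Of 19 HIF targets of glucose use, all tested, 13 were higher and 3 lower in IM than in cortex (9 and 8 after scaling). These counts are near the shares of all tested genes, 70.2% higher and 16% lower (42.7% and 36.3% after scaling). The list's median log2 difference of 0.66 is near the 0.65 of all genes. Hk1, the first enzyme of glycolysis, was called higher in both steps with a difference of 1 or more on the log2(TPM + 1) scale, at 208 ± 28.8 TPM in IM, 88.7 ± 16.0 TPM in OM and 38.2 ± 4.75 TPM in cortex. Its log2 difference was 1.23 for IM minus OM (limma adjusted p = 3.27e-07) and 1.18 for OM minus cortex (limma adjusted p = 8.43e-06). The lactate exporter Slc16a3, named after its values were seen, was also higher in both steps, at 11.7 ± 2.62 TPM in IM, 1.31 ± 0.148 TPM in OM and 0.519 ± 0.185 TPM in cortex, a log2 difference of 2.44 for IM minus OM (limma adjusted p = 1.32e-10) and 0.61 for OM minus cortex (limma adjusted p = 0.00211). The glycolytic enzymes Gapdh and Tpi1 fell. Gapdh averaged 1762 ± 94.9 TPM in IM, 2317 ± 134 TPM in OM and 2659 ± 59.0 TPM in cortex, a log2 difference of -0.59 for IM minus cortex (limma adjusted p = 2.63e-08). Tpi1 averaged 742 ± 74.0 TPM in IM, 1119.7 ± 42.6 TPM in OM and 1187 ± 48.2 TPM in cortex, and Aldoa, the aldolase, averaged 1585 ± 142 TPM in IM, 1090.3 ± 58.7 TPM in OM and 1076 ± 35.6 TPM in cortex. Aldoa was higher by 0.55 in IM than in cortex, and at -0.09 after scaling, where it was not called. In RefSeq Hk1 overlaps its antisense gene Hk1os, Tpi1 overlaps Spsb2 and Slc16a3 overlaps Csnk1d.

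Of the other HIF targets, 22 of 23 genes were tested, with 14 higher and 3 lower in IM than in cortex (11 and 7 after scaling). Among all tested genes 70.2% were higher and 16% lower (42.7% and 36.3% after scaling), so these counts too are near the background. The list's median log2 difference was 0.77 against 0.65 for all genes. Ndrg1, a stress-response gene, averaged 330.3 ± 81.2 TPM in IM, 971 ± 171 TPM in OM and 1475 ± 239 TPM in cortex, and fell by 2.18 ± 0.17 in IM against cortex (limma adjusted p = 6.24e-09). Car12, a membrane carbonic anhydrase like Car9, averaged 28.3 ± 4.83 TPM in IM, 92.8 ± 15.8 TPM in OM and 182 ± 29.9 TPM in cortex, and fell by 2.64 ± 0.14 (limma adjusted p = 7.74e-11). Distal convoluted and connecting tubule markers moved the same way. They summed to 315 to 499 TPM in IM, 2213 to 4501 TPM in OM and 7755 to 9992 TPM in cortex. So did convoluted proximal tubule markers move, with the sums given above. The part of either set in these falls was not tested. Ddit4, an inhibitor of mTORC1 signalling named after its values were seen, averaged 115 ± 16.0 TPM in IM, 34.3 ± 8.02 TPM in OM and 17.7 ± 5.26 TPM in cortex.

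Of the receptors for Vegfa, Adm and Epo, 9 of 10 were tested, with 8 higher and 1 lower in IM than in cortex (6 and 2 after scaling). Among all tested genes 70.2% were higher and 16% lower (42.7% and 36.3% after scaling). The receptors' median log2 difference was 1.85, against 0.65 for all genes. Epor, the erythropoietin receptor, measured 106, 185, 134, 178 and 182 TPM in IM, 8.45, 5.64, 5.49, 4.80 and 5.94 TPM in OM and 2.27, 3.63, 2.75, 2.72 and 2.80 TPM in cortex. No zone overlapped another. Epor was 25.9-fold higher in IM than in OM and 55.4-fold higher in IM than in cortex, with log2 differences of 4.47 ± 0.16 (limma adjusted p = 2.75e-12) and 5.34 ± 0.16 (limma adjusted p = 1.43e-13).

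Nrp1, a coreceptor of Vegfa, averaged 92.8 ± 14.7 TPM in IM, 30.1 ± 2.61 TPM in OM and 24.4 ± 1.70 TPM in cortex, and was higher by 1.88 ± 0.09 in IM than in cortex (limma adjusted p = 2.28e-11). Ramp2, which pairs with the Calcrl receptor to bind adrenomedullin, averaged 64.6 ± 8.08 TPM in IM, 22.8 ± 1.53 TPM in OM and 17.2 ± 1.49 TPM in cortex, a log2 difference of 1.85 ± 0.08 for IM minus cortex (limma adjusted p = 6.8e-12). Endothelial markers, of cells known to carry both, had the order of zones given with Epas1, and their part in these differences was not tested. Erythroid markers are of another cell type known for Epor. They summed to 396 to 916 TPM in IM, 488 to 878 TPM in OM and 350.5 to 677 TPM in cortex. The sums overlapped between all zones. The globin genes Hbb-b2 and Hbb-bt had identical zone means, so the sums may count the same reads more than once. The part of erythroid markers in the Epor difference was not tested.

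Over the 15 libraries, the genes most like each member in Pearson correlation of log2(TPM + 1) gave a further description of its pattern. The points are libraries of only 3 zones, so r describes mainly how the zone means line up. Hif1a was most like Hipk1 and Brd2 (r = 0.998 for each) and Vhl most like Hnrnpr and Phf6 (r = 0.994 for each). Epas1 was most like the endothelial-expressed genes Cx3cl1 (r = 0.987) and Thbd (r = 0.983), Egln1 most like Mgat2 (r = 0.982) and Ado (r = 0.979), and Egln3 most like Dr1 (r = 0.985) and Prkra (r = 0.981). Bnip3 was most like Fmo2 (r = 0.994) and Ugt2b37 (r = 0.992), and Car9 most like Cyp2j11 (r = 0.991) and Dmgdh (r = 0.990), which encode metabolic enzymes. Vegfa was most like Slc25a5 (r = 0.935) and Xdh (r = 0.931). Adm had the weakest likeness, with Slc35c2 (r = 0.832) and Htra1 (r = 0.823). Among the members, r was 0.99 between Hif1a and Vhl, 0.90 between Epas1 and Egln3, 0.87 between Car9 and Bnip3 and -0.96 between Hif1a and Bnip3.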

How the data were processed

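Total RNA of 15 dissected kidney samples was sequenced as paired ends, per the labels' protocols. The values are TPM per gene as the authors deposited them. Reads were aligned with STAR to the mouse genome build mm9, per the submitters' processing notes. How reads were counted, with which annotation and strand setting, is not given in the sources used here. Of the table's rows, 92 name spike-in controls, all at 0.

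The 15052 of 25030 genes that reached 1 TPM in 5 or more libraries were tested on log2(TPM + 1) with limma 3.58.1 in R 4.3.3 (statmod 1.5.0), with trended, robust empirical Bayes, zone as the factor and all 15 libraries. P-values were two-sided and adjusted by Benjamini-Hochberg over all genes tested, with calls at an adjusted p under 0.05. A difference on this scale understates the change of low genes. Ratios were tested by exact permutation. The fit was tested on data simulated with independent libraries and without a shift of most genes, unlike the data here. That test does not bear on calls that depend on scaling or pairing. Whole reads were inferred from TPM steps, which came out whole within 0.001 for 100.0% of the 19997 genes above 0 in more than 1 library; they served for depth, Epo and a limma-voom alternative.

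The members, lists and tests were chosen with earlier results of these data known. Named genes are the members, the 3 most abundant tested genes of each list, list genes called the same way in both steps with a difference of 1 or more on the log2(TPM + 1) scale, and the 2 genes most correlated with each member at a mean of 5 TPM or more; others are marked as named after their values were seen. Alternatives were another pseudocount (0.1), no filter, median-ratio scaling, quantile normalization, limma-voom, fits of 2 zones, a replicate block and leaving libraries out. Promoters, gene overlaps and older symbols came from RefSeq tables on GRCm38.p6, and no coordinates of the mm9 files were used.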

Additional observations from a re-analysis of the deposited data

Results flagged for a closer look

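Among 29 gene-by-zone groups of 5 libraries with any spread, 2 held a library whose gap to its nearest neighbour was large against the group's range, where chance gives such a gap in about 1 of 20 groups. Epas1 in OM 2 was at 53.1 TPM, below the 59.3 to 60.8 TPM of the other OM libraries. Egln3 in cortex 1 was at 12.03 TPM, above the 7.16 to 8.49 TPM of the other cortex libraries.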

How the results depend on the processing

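Of 27 differences of single members, 15 kept their direction and their side of the threshold under all 23 alternatives, among them all 6 of Hif1a, Vhl and Car9 that compare IM with another zone. The other 12 changed under at least 1. Members called lower in OM than in cortex numbered 1 (Adm), against 0 with no filter, 0 with the replicate block, 0 without cortex 1, OM 1 and IM 4, 2 with median-ratio scaling, 2 with a fit of both zones alone and 0 to 1 with each library left out. Members called higher in OM than in cortex numbered 3, against 5 with a fit of both zones alone. Members called higher in IM numbered 6 against OM, with 3 under median-ratio scaling and 3 under quantile normalization, and 5 against cortex, with 3 under median-ratio scaling. Direction turned under median-ratio scaling for Egln1 (-0.051 for OM minus cortex, -0.053 for IM minus OM, -0.10 for IM minus cortex), Epas1 (-0.13 for IM minus OM) and Adm (-0.55 for IM minus cortex). It turned under quantile normalization for Egln1 (-0.0092 for OM minus cortex) and Adm (-0.82 for IM minus cortex), and under limma-voom for Adm (-0.15 for IM minus cortex). With each library left out, Adm for IM minus cortex ran between -0.18 and 0.18, and the log2 ratio Hif1a/Epas1 for OM minus cortex between -0.061 and 0.038. The log2 ratio Egln3/Egln1 for IM minus OM was 0.53 without cortex 1, OM 1 and IM 4, with an adjusted exact permutation p of 0.0643, in a design of 4 libraries against 4. The cause of these changes was not tested. The labels do not say that a replicate number marks a shared animal or day, and not every same-numbered pair correlated above 0.1 in its deviations from zone means. Those pairs ran from -0.03 to 0.26 (median 0.10, against -0.03 for other pairs), with 8 of 15 over 0.1. The best match shared the number in 20 of 30 cases, a hint of pairing from the data and not from the design. Each case was the best match of a library among the 5 libraries of another zone. Apart from the replicate block, all tests here treat the libraries as unpaired. With the replicate block the adjusted limma p of Adm for OM minus cortex was 0.0709. Depth limits Epo, with 0 reads in IM, 4 in OM and 9 in cortex.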
